A study of Mus musculus with 33 samples.

Results

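The 8 genes described here belong to the Lin28 and let-7 axis: the RNA-binding proteins Lin28a and Lin28b, the chromatin proteins Hmga2 and Hmga1, the mRNA-binding proteins Igf2bp1, Igf2bp2 and Igf2bp3, and the RNA-binding ubiquitin ligase Trim71. They were chosen by gene symbol, and each had 1 row among the 52631 genes of the deposited expression table. All 8 were among the 16508 genes that passed the filter on low values. The study followed mouse embryonic stem cells under retinoic acid, with or without CHIR, a GSK3 inhibitor used to switch on Wnt signalling, and set the cultures beside a smooth muscle and an extraembryonic endoderm line. RNA was measured as FPKM, that is, fragments scaled to transcript length and library size, in 33 poly(A) libraries of 11 groups with 3 libraries each. The labels give the strain of every group as 129S2/SvPas.

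The untreated stem cells (mES) were kept with LIF on inactivated feeder fibroblasts. In the RA arm they received all-trans retinoic acid at 10 µM on gelatin, and in the RA/CHIR arm the same dose together with CHIR at 5 µM. Both arms were treated for 10 days and then kept for 6 days in serum medium without the inducers, and cells were taken on days 4, 7, 10 and 16. RA-4d to RA-16d and RA/CHIR-4d to RA/CHIR-16d name these groups, which the labels call SMC-like and XEN-like derivatives. The smooth muscle cells (SMC) and the extraembryonic endoderm cells (XEN) received no inducer. Whether the 3 libraries of a group came from separate cultures is not stated in the labels, and the spread behind the p-values may be technical.

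The let-7 microRNAs silence mRNAs that carry a match to their seed in the 3′ UTR. LIN28 proteins bind let-7 precursors and block let-7 maturation. LIN28A recruits terminal uridylyl transferases, which marks the precursors for decay. The Lin28 mRNAs are let-7 targets themselves, so LIN28 and let-7 form a mutually inhibitory loop. Stem cells are known for high Lin28a and little mature let-7, and let-7 accumulates as they differentiate. Hmga2, the Igf2bp genes and Trim71 are textbook targets that mark this change.

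The mature family is shown first because its common seed is what defines the axis. RefSeq's tables for GRCm38.p6 gave 9 different mature sequences, each of 22 bases, and all 9 share the seed, bases 2 to 8, printed in capitals. None of them differs in the seed, and let-7d alone begins with a instead of u.
let-7a-5p: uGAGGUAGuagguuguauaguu
let-7b-5p: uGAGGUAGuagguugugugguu
let-7c-5p: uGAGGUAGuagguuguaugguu
let-7d-5p: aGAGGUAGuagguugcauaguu
let-7e-5p: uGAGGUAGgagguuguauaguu
let-7f-5p: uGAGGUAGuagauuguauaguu
let-7g-5p: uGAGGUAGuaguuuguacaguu
let-7i-5p: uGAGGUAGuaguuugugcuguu
miR-98-5p: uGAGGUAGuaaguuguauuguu

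The seed pairs with the 7 bases CTACCTC, which were searched on the sense strand of the longest annotated 3′ UTR of each gene. All 8 genes held at least 1 such site, 21 sites in all, against 9.03% of the 20998 protein-coding genes with a 3′ UTR. The genes are known let-7 targets, so this is a description and not a test. Lin28b, Hmga2, Igf2bp1 and Trim71 held 4 sites each, Lin28a held 2, and Hmga1, Igf2bp2 and Igf2bp3 held 1. An A follows the match in 13 of the 21 sites, among them all 4 of Trim71 and both of Lin28a, while the single site of Hmga1 is followed by a t. Long UTRs hold more matches: among UTRs within 20% of the same length, 33.57% held a site for Igf2bp1, 29.42% for Trim71, 24.17% for Lin28b, 15.5% for Hmga2, 14.36% for Lin28a, 13.25% for Igf2bp3, 12.02% for Igf2bp2 and 8.05% for Hmga1. The first site of each gene, nearest to the stop codon, is given below with 14 bases before it and 1 after it, the match in capitals.
Lin28a: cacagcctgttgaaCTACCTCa
Lin28b: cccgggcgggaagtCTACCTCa
Trim71: acattgcctaagtcCTACCTCa
Hmga2: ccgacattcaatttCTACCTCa
Hmga1: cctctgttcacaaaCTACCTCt
Igf2bp1: ctgtgcgaagtaaaCTACCTCa
Igf2bp2: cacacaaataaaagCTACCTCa
Igf2bp3: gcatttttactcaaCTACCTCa
In GRCm38 these matches lie in 3′ UTR exons at chr4:134005190-134005196 (Lin28a, minus strand), chr10:45381023-45381029 (Lin28b, minus), chr9:114512473-114512479 (Trim71, minus) and chr10:120364225-120364231 (Hmga2, minus). Those of the other genes lie at chr17:27563292-27563298 (Hmga1, plus), chr11:95961779-95961785 (Igf2bp1, minus), chr16:22059474-22059480 (Igf2bp2, minus) and chr6:49086788-49086794 (Igf2bp3, minus). The sites of Lin28b and Hmga2 begin at base 36 and base 58 of the UTR, and the sites of the other genes begin farther along.

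Mature let-7 was not measured. The 12 rows of let-7 and miR-98 genes were listed at 0 in all 33 libraries, which were made from poly(A) RNA cut to about 200 bp. All statements below are about mRNA levels of the proteins of the axis and, further on, about the longer transcripts that hold the let-7 hairpins.

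Between 11573 and 13662 genes reached 1 FPKM in a library, and libraries of 1 group correlated across genes at 0.980 to 0.989. The 5 pluripotency markers (Pou5f1, Nanog, Sox2, Zfp42 and Esrrb) summed to 2404 to 2954 FPKM in mES, to 122.0 to 126.9 in RA-4d and 7.55 to 9.68 in RA-16d, and to 430.7 to 435.1 in RA/CHIR-4d and 178.2 to 188.3 in RA/CHIR-16d. In XEN they summed to 0.0639 to 0.717, with Esrrb listed at 0. The 5 extraembryonic endoderm markers (Sox17, Gata4, Gata6, Sox7 and Dab2) summed to 40.5 to 72.6 in mES and 539.2 to 582.4 in XEN. On day 4 they went against the labels, with 486.1 to 498.3 in RA and 333.3 to 351.5 in RA/CHIR; on day 16 they were at 278.8 to 313.7 in RA and 899.0 to 1001 in RA/CHIR. The 4 smooth muscle markers (Acta2, Tagln, Cnn1 and Myh11) summed to 17101 to 17721 in SMC, 7079 to 7969 in RA-16d and 417.2 to 428.7 in RA/CHIR-16d. Fibroblast markers summed to 28.4 to 50.5 in mES, 2638 to 3245 in RA-16d, 298.1 to 330.0 in RA/CHIR-16d and 6676 to 6869 in SMC. The 4 neural markers (Sox1, Pax6, Nes and Neurog2) summed to 23.1 or less in every library. In RA-4d all 4 had a mean of at least 1 FPKM, and they summed to 18.5 to 18.8. In RA-16d 2 of them did, with a sum of 13.1 to 23.1, while Neurog2 and Sox1 were listed at 0. In bulk RNA, fewer cells of a type and less RNA per cell cannot be told apart.

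**Figure D1:**
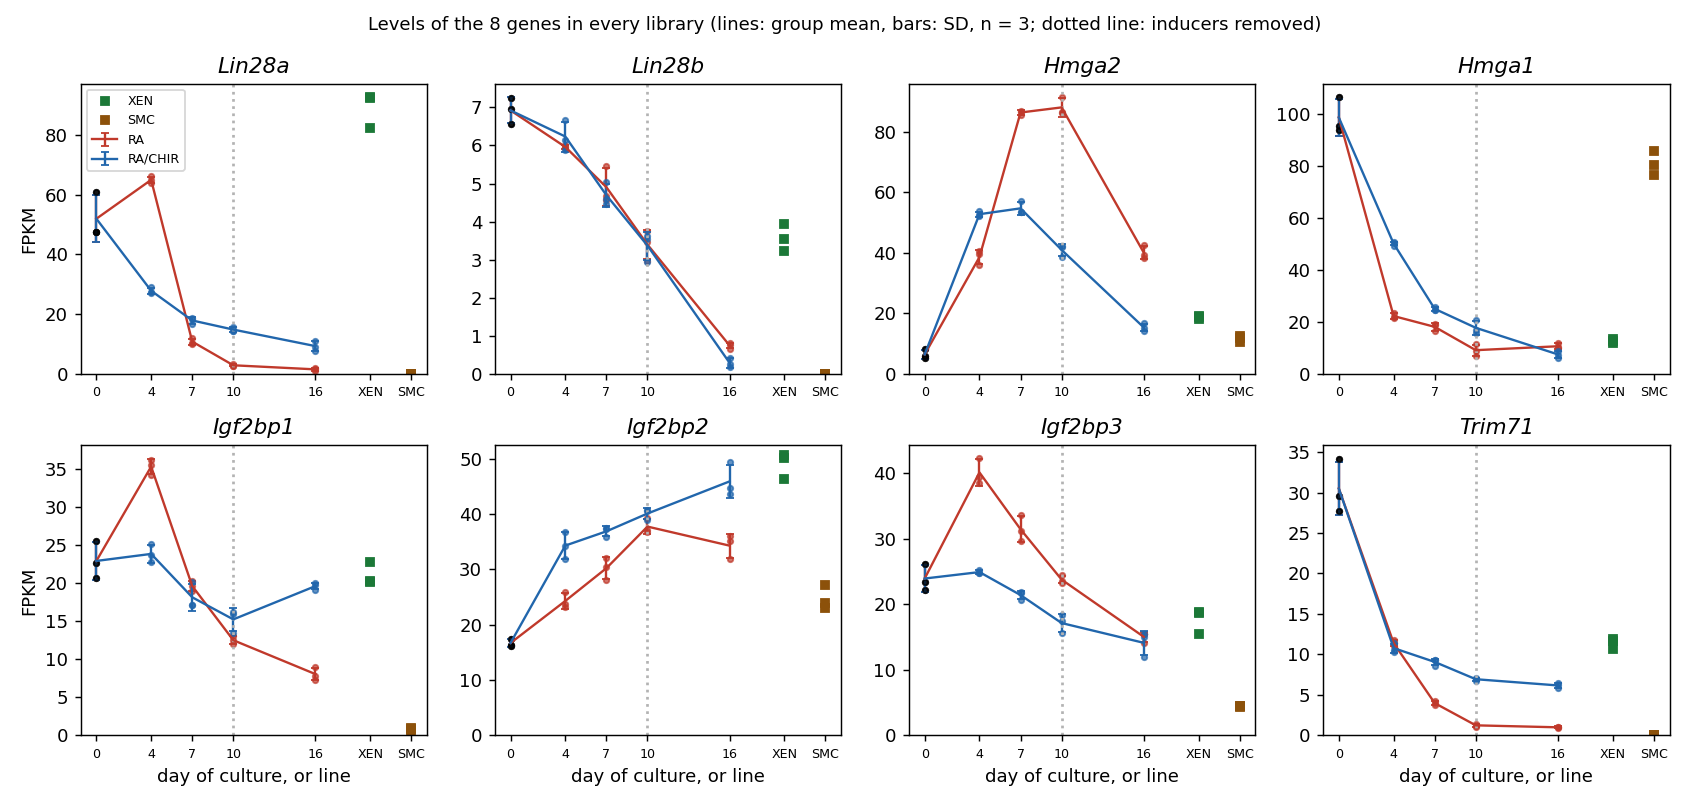
FPKM of the 8 genes (vertical axes, 1 panel per gene, own scales) against the day of culture, with RA in red, RA/CHIR in blue, mES in black at day 0, and XEN and SMC as squares at the right; points are libraries, lines join group means and bars are SD over 3 libraries. Lin28a and Trim71 of the RA arm fall below those of RA/CHIR from day 7, while Hmga2 of the RA arm rises above it from day 7.

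Lin28a (chr4:134003330-134018841, minus strand), whose protein blocks let-7 maturation, was lower than in mES from day 7 on in both arms, and by day 10 more so under retinoic acid alone than with CHIR. Its FPKM were 47.3, 47.5 and 61.0 in mES. In the RA arm they were 63.9, 64.9 and 66.1 on day 4, 10.5, 9.95 and 11.9 on day 7, 2.64, 2.68 and 3.19 on day 10, and 0.892, 1.54 and 1.97 on day 16. In the RA/CHIR arm they were 29.0, 27.2 and 27.3 on day 4, 18.4, 18.7 and 16.5 on day 7, 14.3, 15.7 and 14.5 on day 10, and 7.73, 10.9 and 9.13 on day 16. The arms did not overlap on any day, and their order turned between days 4 and 7.

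On day 4 the mean of RA/CHIR was 2.34-fold below that of RA, a log2 change of -1.196 ± 0.12 (SE) with an adjusted p of 7.85e-09. On day 7 the value of 0.68 stayed short of the threshold of 1 (adjusted p = 3.98e-05). On day 10 RA/CHIR was higher by 2.04 ± 0.12 (adjusted p = 9.66e-14), a ratio of 5.22 between the means. After 6 days without inducers it was higher by 2.07 ± 0.12 (adjusted p = 4.74e-14), a ratio of 6.31. Relative to mES, Lin28a fell by 4.44 in RA-16d and fell by 2.37 in RA/CHIR-16d on the log2 scale. The sum of the pluripotency markers was higher in RA/CHIR than in RA on every day, including day 4, when Lin28a was lower. On day 10 it was 16.3 to 18.9 FPKM in RA and 228.6 to 238.6 in RA/CHIR, although Nanog was listed at means of 0.412 and 0.233 and Sox2 at 2.33 and 2.39. The sum of the extraembryonic endoderm markers had the order of Lin28a between the arms on each of the 4 days. It was higher in RA on day 4 (values above) and higher in RA/CHIR afterwards, with 246.3 to 251.1 in RA and 493.4 to 546.2 in RA/CHIR on day 7 and 190.8 to 201.8 and 538.7 to 552.9 on day 10. The part of these markers in the result was not tested.

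The highest Lin28a was found in XEN, at 92.6, 92.4 and 82.3 FPKM, in libraries where the pluripotency markers were near 0. XEN lay above mES in every library, with a log2 difference of 0.78 ± 0.12 that did not reach the threshold. RA/CHIR-16d, which the labels call XEN-like, stood 9.63-fold below XEN (log2 -3.14 ± 0.12, adjusted p = 5.42e-18). All 3 SMC libraries were listed at 0. From high to low the groups ran XEN, RA-4d, mES, RA/CHIR-4d, RA/CHIR-7d, RA/CHIR-10d, RA-7d, RA/CHIR-16d, RA-10d, RA-16d and SMC, and of the neighbours in this order only RA-7d and RA/CHIR-16d overlapped.

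Lin28b (chr10:45376620-45486395, minus strand), the paralog whose protein also blocks let-7 maturation, was present at a lower level than Lin28a in mES. It overlapped between the arms up to day 10. It measured 6.56, 6.96 and 7.24 FPKM in mES. The RA arm gave 5.95, 5.92 and 6.01 on day 4, 4.57, 4.67 and 5.47 on day 7, 3.47, 3.74 and 2.97 on day 10, and 0.759, 0.663 and 0.803 on day 16. The RA/CHIR arm gave 6.15, 6.67 and 5.89, then 4.59, 4.45 and 5.04, then 2.95, 3.62 and 3.54, and on day 16 0.417, 0.265 and 0.173. The libraries of the arms overlapped on days 4, 7 and 10, with log2 differences of 0.05, -0.05 and -0.01 (SE 0.09 each). The intervals of 2 SE around these exclude the threshold of 1, but do not show that the arms were equal.

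On day 16 Lin28b of RA/CHIR lay below that of RA in all libraries. The log2 difference of -0.44 ± 0.09 (adjusted p = 9.90e-05) missed the threshold on the scale with 1 FPKM added, which compresses changes of weak genes, and passed it with 0.1 FPKM added (-1.17, adjusted p = 4.77e-07). Thus Lin28b and Lin28a stood in opposite order between the arms on day 16. From day 10 to day 16 Lin28b fell in both arms, by 1.33 in RA and by 1.77 in RA/CHIR. XEN held 3.93, 3.54 and 3.22 FPKM, and SMC was listed at 0.

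The ratio of Lin28a to Lin28b therefore differed widely among the groups. It was 7.49 ± 0.838 (SD, n = 3) in mES and 10.9 ± 0.143 in RA-4d, and reached 0.851 ± 0.194 in RA-10d, where the 2 mRNAs were at like levels. In RA/CHIR it remained between 3.83 and 4.47 up to day 10 and was 37.5 ± 17.4 on day 16. XEN showed 25.1 ± 1.35. The day-16 ratio of RA/CHIR ranged from 18.5 to 52.8 over its libraries, since the Lin28b values under it are below 1 FPKM.

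Trim71 (chr9:114507133-114564369, minus strand), known as Lin-41 and a repressor of differentiation mRNAs, lay higher in RA/CHIR than in RA from day 7 on, as did Lin28a. It stood at 27.7, 29.6 and 34.1 FPKM in mES. RA libraries measured 11.1, 11.4 and 11.8 on day 4, 4.21, 3.79 and 3.98 on day 7, 1.08, 1.46 and 1.2003 on day 10, and 1.10, 1.06 and 0.858 on day 16. RA/CHIR libraries measured 11.4, 10.4 and 10.6, then 9.32, 9.31 and 8.60, then 6.73, 7.09 and 7.01, and on day 16 5.80, 6.27 and 6.46. The arms overlapped on day 4 and were apart on each later day.

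The log2 difference of Trim71 between RA/CHIR and RA was -0.08 ± 0.08 on day 4. It was 1.01 ± 0.08 on day 7 (adjusted p = 1.80e-11), just past the threshold, and without RA-7d replicate 2 (0.98) or RA/CHIR-7d replicate 1 or 2 (0.996 in both cases) the call was lost. On day 10 it was 1.82 ± 0.08 (adjusted p = 5.86e-17) and on day 16 1.84 ± 0.08 (adjusted p = 2.90e-17), with mean ratios of 5.57 and 6.16. Most of the loss in the RA/CHIR arm had happened by day 4, when Trim71 had fallen by 1.41 from mES. XEN held 11.9, 11.7 and 10.6 FPKM, overlapping with RA-4d and RA/CHIR-4d, and SMC held 0.039, 0 and 0.019.

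Hmga2 (chr10:120361275-120476469, minus strand), an architectural chromatin protein of embryonic and mesenchymal cells and a target with several let-7 sites, rose in every treated group and was lowest in mES. The mES libraries gave 5.04, 6.00 and 8.14 FPKM. Under RA the values were 35.8, 39.5 and 40.4 on day 4, 86.9, 85.6 and 86.7 on day 7, 86.5, 91.6 and 86.2 on day 10, and 39.4, 38.3 and 42.4 on day 16. Under RA/CHIR they were 53.8, 52.4 and 52.1, then 53.5, 57.2 and 53.4, then 42.3, 38.7 and 41.9, and on day 16 16.6, 15.2 and 14.05. RA/CHIR was above RA on day 4 and below it from day 7, without overlap on any day.

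The arm differences of Hmga2 were 0.44 ± 0.09 on day 4 and -0.65 ± 0.09 on day 7, both short of the threshold. RA/CHIR was lower by 1.09 ± 0.09 on day 10 (adjusted p = 8.51e-11) and by 1.33 ± 0.09 on day 16 (adjusted p = 9.46e-13). Against mES, the increase was 13.8-fold in RA-10d and 2.39-fold in RA/CHIR-16d. Hmga2 fell in both arms after the inducers were removed, by 1.12 in RA and 1.37 in RA/CHIR, and the difference between these steps was -0.25 ± 0.13 (adjusted p = 0.127). XEN measured 19.0, 18.9 and 18.2 and SMC 12.4, 10.7 and 11.8. Fibroblast markers were also higher in RA-16d than in RA/CHIR-16d. In SMC, where those markers were highest, Hmga2 was 10.7 to 12.4. The part of the fibroblast markers in the Hmga2 difference was not tested.

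Hmga1 (chr17:27556497-27563674, plus strand), the paralog expressed in proliferating stem cells, was highest in mES, where Hmga2 was lowest. The mES libraries held 95.4, 94.0 and 106.8 FPKM. The RA libraries held 21.7, 21.5 and 23.5 on day 4, 16.4, 18.9 and 19.0 on day 7, 8.92, 7.03 and 11.3 on day 10, and 10.2, 9.75 and 11.8 on day 16. The RA/CHIR libraries held 50.7, 49.4 and 50.4, then 24.4, 24.7 and 25.9, then 15.5, 20.6 and 16.9, and on day 16 8.77, 7.33 and 6.25. RA/CHIR was above RA on days 4, 7 and 10 and below it on day 16, without overlap.

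On day 4 the difference in Hmga1 was 1.14 ± 0.12 (adjusted p = 9.27e-09). The values of 0.45 on day 7, 0.90 on day 10 and -0.46 on day 16 did not pass the threshold, although without RA-10d replicate 3 that of day 10 was 1.06 and passed. From day 10 to day 16 Hmga1 fell by 1.15 in RA/CHIR and measured 0.22 in RA, where the days overlapped. The difference between these steps was -1.37 ± 0.17 (adjusted p = 1.73e-07). SMC, with 76.4, 85.8 and 80.5 FPKM, was second to mES, and XEN held 11.9, 13.3 and 12.8. How the authors' counting treated reads that match more than 1 place in the genome is not given in the sources used here, so the level of Hmga1 is uncertain, its order among the groups included.

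Igf2bp1 (chr11:95957163-96005940, minus strand) stabilises and localises fetal mRNAs. Its FPKM were 20.6, 22.6 and 25.5 in mES. The RA arm showed 34.2, 36.1 and 35.5 on day 4, 19.6, 20.3 and 18.9 on day 7, 12.5, 11.98 and 13.02 on day 10, and 7.84, 7.33 and 8.95 on day 16. RA/CHIR showed 23.6, 25.1 and 22.7, then 20.1, 17.1 and 17.1, then 13.5, 16.0 and 16.2, and on day 16 19.1, 19.7 and 19.9. The arms changed order, with RA higher on day 4, an overlap on day 7 and RA/CHIR higher on days 10 and 16.

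The Igf2bp1 difference passed the threshold on day 16 only, at 1.19 ± 0.09 (adjusted p = 6.82e-12), a ratio of 2.44. The values before were -0.55, -0.11 and 0.26. RA-16d was below mES by 1.40 and RA/CHIR-16d by 0.21, the latter not past the threshold. The change from day 10 to day 16 differed between the arms by 0.93 ± 0.13 (adjusted p = 1.08e-06), short of the threshold; without RA-16d replicate 3 it was 1.0002 and passed. XEN held 22.7, 20.2 and 20.1, overlapping with mES, and SMC 1.003, 0.871 and 0.573.

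Igf2bp2 (chr16:22059009-22163299, minus strand), the member that adult tissues also express, varied least of the 8, with 2.94-fold between its highest and lowest group means. The mES libraries, at 16.2, 16.4 and 17.4 FPKM, were the lowest. RA gave 23.8, 23.2 and 26.0, then 28.1, 32.1 and 30.5, then 39.3, 36.8 and 37.1, and on day 16 31.8, 35.9 and 35.1. RA/CHIR gave 36.7, 34.2 and 31.9, then 35.8, 37.5 and 37.3, then 40.7, 40.6 and 39.0, and on day 16 44.7, 49.3 and 43.7. All treated libraries lay above all mES libraries. XEN held 50.7, 50.2 and 46.3 and SMC 23.9, 27.2 and 23.02.

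No arm difference of Igf2bp2 passed the threshold, the values being 0.48, 0.28, 0.09 and 0.41 from day 4 to day 16 (SE 0.07 each). It rose above mES by 1.13 in RA-10d and by 1.10, 1.22 and 1.40 in RA/CHIR on days 7, 10 and 16. RA-16d and RA/CHIR-4d stood at 0.99 against mES. Each of these passed without mES replicate 3 (1.02 in both), and also RA-16d without its replicate 1 (1.05) and RA/CHIR-4d without its replicate 3 (1.04). RA/CHIR-16d and XEN overlapped, with a difference of -0.09 ± 0.07.

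Igf2bp3 (chr6:49085223-49214957, minus strand), an oncofetal paralog, peaked in RA-4d. It was at 23.4, 26.2 and 22.2 FPKM in mES, and in RA at 38.5, 39.5 and 42.4, then 31.2, 29.6 and 33.6, then 23.3, 23.6 and 24.4, and on day 16 14.1, 15.5 and 15.5. In RA/CHIR it was at 24.7, 25.3 and 24.7, then 21.7, 21.9 and 20.7, then 18.3, 15.7 and 17.4, and on day 16 15.0, 15.4 and 11.999. RA/CHIR was below RA without overlap on days 4, 7 and 10, with log2 differences of -0.66, -0.53 and -0.45 (SE 0.08 each, adjusted p at most 2.91e-05), and overlapped with it on day 16. None of these reached the threshold of 1. XEN held 18.9, 18.7 and 15.5. In SMC it was 4.54, 4.54 and 4.396, lower than in mES by 2.18.

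The makeup of the 3 Igf2bp mRNAs held more Igf2bp2 on day 16 of either arm than in mES. In mES, Igf2bp1, Igf2bp2 and Igf2bp3 were 36.0%, 26.3% and 37.7% of their summed FPKM, and in RA-4d 35.4%, 24.4% and 40.2%. On day 16 the shares were 14.03%, 59.7% and 26.2% in RA and 24.7%, 57.6% and 17.7% in RA/CHIR. XEN showed 24.0%, 55.9% and 20.1%, and SMC 2.71%, 82.3% and 15.0%. The sum was 63.5 ± 2.87 FPKM in mES, 99.7 ± 3.77 in RA-4d, 57.4 ± 3.13 in RA-16d, 79.6 ± 4.51 in RA/CHIR-16d, 87.7 ± 5.35 in XEN and 29.99 ± 2.36 in SMC. Hence the share of Igf2bp2 was alike on day 16 in both arms, while the remainder was mostly Igf2bp3 in RA and mostly Igf2bp1 in RA/CHIR.

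Between the arms, the count of called genes was highest on day 16, among the 8 as over all genes. In limma, a gene counted as called when its log2 change was at least 1 in size with an adjusted p under 0.05. On day 4, 2 of the 8 were called, Hmga1 higher and Lin28a lower in RA/CHIR, where 7.63% of all genes tested were called. On day 7 only Trim71 was called (10.7% of all genes), on day 10 Lin28a and Trim71 higher and Hmga2 lower (15.4%), and on day 16 Lin28a, Trim71 and Igf2bp1 higher and Hmga2 lower (21.3%). The libraries of the arms did not overlap for 6, 6, 6 and 7 of the 8 genes on the 4 days, against 55.2%, 56.7%, 62.4% and 62.9% of all genes. The median log2 change of the 8 was -0.01, 0.11, 0.17 and 0.16, and that of all genes 0.01, 0, 0 and -0.01, so the group had no common direction.

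**Figure D2:**
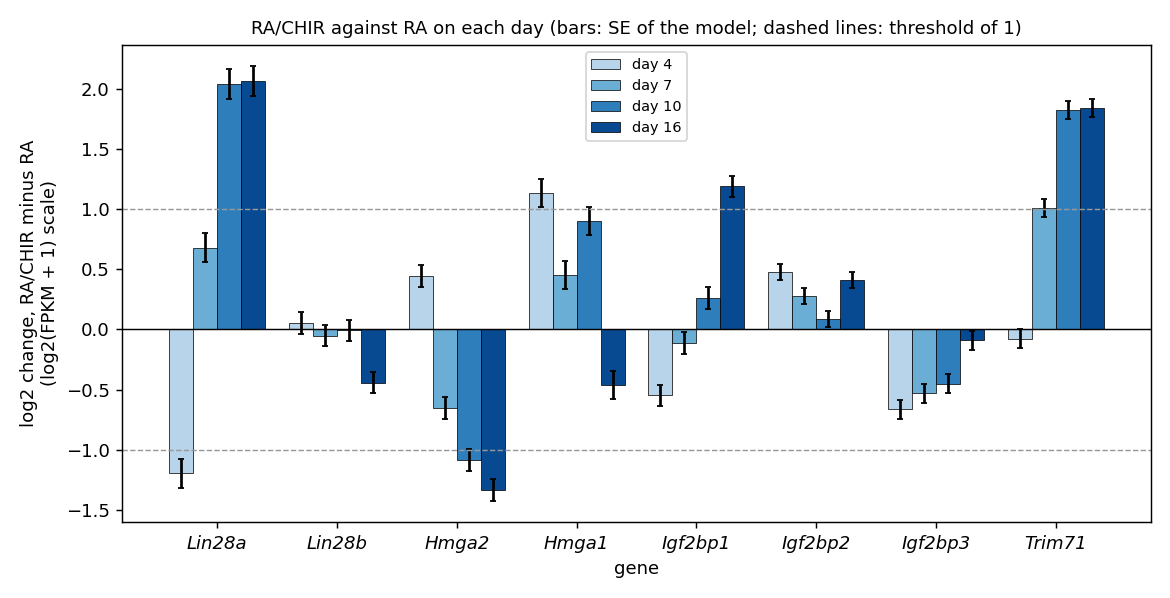
Log2 change of RA/CHIR against RA on the log2(FPKM + 1) scale (vertical axis) for each of the 8 genes, with 1 bar per day from day 4 (light) to day 16 (dark), error bars for the standard error of the model and dashed lines at the threshold of 1. Lin28a runs from -1.196 on day 4 to 2.07 on day 16 and Hmga2 from 0.44 to -1.33, while Lin28b and Igf2bp2 stay within 0.5 of 0.

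Against mES, 3 of the 8 genes were called in RA-4d, 4 in RA-7d, 5 in RA-10d and 6 in RA-16d, where the shares of all genes called were 23.4%, 27.7%, 32.5% and 36.7%. In RA/CHIR the counts were 2, 5, 5 and 6, beside 18.2%, 25.2%, 29.6% and 36.3% of all genes. Hmga2 was higher in all 8 treated groups and Trim71 lower in all 8. Hmga1 was lower in 7 of them, all but RA/CHIR-4d (-0.96). By day 16 Lin28a, Lin28b, Hmga1 and Trim71 were lower in both arms. These comparisons share the mES libraries.

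In XEN against mES, 4 of the 8 genes were called (33.1% of all genes were called): Hmga2 higher by 1.43 and Igf2bp2 higher by 1.499, Hmga1 lower by 2.87 and Trim71 lower by 1.34. In SMC, 5 were called, all lower (43.2% of all genes were called, 22.2% as lower), namely Lin28a, Lin28b, Trim71, Igf2bp1 and Igf2bp3. In RA/CHIR-16d against XEN, 2 of the 8 were called, Lin28a and Lin28b, both lower (23.2% of all genes were called, 8.64% as lower). Trim71 at -0.79 (adjusted p = 9.10e-10), Hmga1 at -0.70 and Igf2bp3 at -0.31 were below XEN in every library but short of the threshold of 1. So were Hmga2 at -0.27 (adjusted p = 0.0104) and Igf2bp1 at -0.09 (adjusted p = 0.376). The share of all genes without overlap is not given for this comparison. Over the 6 days without inducers, Hmga2 and Lin28b fell in RA (9.17% of all genes were called, 1.80% as lower), and Hmga2, Lin28b and Hmga1 fell in RA/CHIR (14.8%, and 6.28% as lower). The change differed between the arms for 1 of the 8, Hmga1, where 14.8% of all genes were called.

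Across the 11 group means the genes formed no single pattern. The Pearson correlation of log2 levels was 0.936 between Lin28a and Trim71, 0.895 between Igf2bp1 and Igf2bp3, and 0.848 between Lin28a and Igf2bp1. Lin28a, Lin28b, Igf2bp1, Igf2bp3 and Trim71 all correlated positively with each other, at 0.617 to 0.936. Each of these was lowest in SMC, and the weight of that group in the correlations was not tested. Hmga1 and Igf2bp2 ran in opposite directions at -0.774, and Hmga1 and Hmga2 at -0.476. These are descriptions over 11 groups that belong to the same time courses. Among all other genes, the closest to Lin28a were Arid3b (0.978), a let-7 target as well, Pola2 (0.977) and Pfkfb1 (0.966), and the closest to Trim71 were Ppat (0.980), Rnf220 (0.976) and Rad54l (0.975). Lin28b ran with Snrpg (0.974), Tfap4 (0.973) and Dvl2 (0.969), and Igf2bp1 with N4bp2 (0.987), Faap100 (0.978) and Cul4b (0.975). For Igf2bp3 these were Zfp41 (0.960), Thap11 (0.956) and Arrdc3 (0.947), for Igf2bp2 Ppt1 (0.952), Akr1c13 (0.940) and Commd5 (0.934), for Hmga1 Rrs1 (0.959), Exosc9 (0.950) and Cabp1 (0.948), and for Hmga2 Kantr (0.953), Rabgap1 (0.935) and Id1 (0.933).

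Among 14 genes that make, tail and destroy let-7 precursors, 0 were called between the arms on day 4 (7.63% of all genes were called), 1 on day 7 (10.7%), 2 on day 10 (15.4%) and 1 on day 16 (21.3%). With so few genes, these counts are near or below those shares and are no result about the list. With an adjusted p under 0.05 and no minimum change, limma gave 5, 8, 8 and 12 of them. The share of all genes under that rule is not given here, so these counts are no result about the list either. Zcchc11, the uridylyl transferase TUT4 that LIN28A recruits, was lower in RA/CHIR by 1.28 ± 0.17 on day 7 and by 1.14 ± 0.17 on day 10. Its FPKM on day 7 were 35.7, 29.1 and 37.9 in RA and 14.3, 12.5 and 13.4 in RA/CHIR, which did not overlap. Trim25, an RNA-binding cofactor of that enzyme, was higher in RA/CHIR by 1.13 ± 0.07 on days 10 and 16, with 11.6, 15.2 and 12.1 FPKM in RA-16d and 30.7, 28.4 and 29.0 in RA/CHIR-16d. The median change of the list on day 16 was 0.26, beside -0.01 for all genes.

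Relative to mES, 3 of the 14 fell in RA-16d (36.7% of all genes were called, 16.3% as lower): Hnrnpa1, which competes for let-7a precursors, by 1.27, Trim25 by 1.11 and Khsrp, which favours let-7 processing, by 1.07. In RA/CHIR-16d, where 3 were called too (36.3% of all genes), Hnrnpa1 fell by 1.92 and Dis3l2, the exonuclease that degrades uridylated precursors, by 1.12, and Zcchc6, the transferase TUT7, rose by 1.05. The median of the list was -0.66 in RA-16d and -0.40 in RA/CHIR-16d, beside 0.03 and -0.02 for all genes. Hnrnpa1 has processed pseudogenes that may share its reads.

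Some of the transcripts from which let-7 is cut were called between the arms, and others were not. LIN28 is known to recognise a GGAG motif in the precursor, and 9 of the 12 let-7 family hairpins in RefSeq's GRCm38.p6 tables held GGAG between the mature arms, while Mirlet7b, Mirlet7c-2 and Mir98 did not. As examples, the hairpins of let-7c-1 and let-7e, whose hosts differed between the arms, are given with GGAG in capitals, and that of let-7b as one without it.
Mirlet7c-1: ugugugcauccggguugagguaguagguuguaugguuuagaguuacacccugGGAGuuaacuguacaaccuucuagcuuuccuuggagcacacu
Mirlet7e: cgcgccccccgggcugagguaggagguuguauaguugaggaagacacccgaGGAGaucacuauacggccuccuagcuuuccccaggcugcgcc
Mirlet7b: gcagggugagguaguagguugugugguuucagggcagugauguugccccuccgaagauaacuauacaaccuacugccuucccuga
They lie at chr16:77599657-77599750, chr17:17830352-17830444 and chr15:85707319-85707403, all on the plus strand.

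Of the genes that overlap a hairpin on the same strand, 7 were tested. Mir99ahg and Huwe1 were chosen by name and the others by position after the table was seen. Over all genes, 7.63%, 10.7%, 15.4% and 21.3% were called between the arms on days 4, 7, 10 and 16. With so few hosts chosen in this way, the calls below are no result about hosts as a set. Mir99ahg, the host of let-7c-1, was listed at 0 in mES and had means of 2.79, 5.48, 8.73 and 9.55 FPKM in RA on the 4 days, against 0.127, 0.442, 0.360 and 0.834 in RA/CHIR. It was lower in RA/CHIR on every day, by 1.75, 2.17, 2.82 and 2.54 (SE 0.16 each, adjusted p at most 1.17e-09). The host of let-7a-2, 2610203C20Rik (3110039I08Rik in the annotation), rose from 0.425 FPKM in mES to 37.2 in RA-10d and stood at 4.81 in RA/CHIR-10d. It was lower in RA/CHIR by 2.02, 2.72 and 1.71 on days 7, 10 and 16, with 0.06 on day 4. Spaca6, which holds let-7e, was lower in RA/CHIR on the same days by 1.68, 1.65 and 1.10. The host of let-7i, AC153911.1 (D630033A02Rik), was lower on days 10 and 16, by 1.06 and 1.73.

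Against this, 6720427I07Rik (let-7a-1, let-7f-1 and let-7d), Wdr82 (let-7g) and Huwe1 (let-7f-2 and miR-98) were not called between the arms on any day. Huwe1 measured -0.23, 0.01, 0.42 and 0.34 from day 4 to day 16. Its adjusted p in limma was 0.0021 on day 10 and 0.011 on day 16. Wdr82 measured 0.15 on day 16 (adjusted p = 0.043). These values were short of the threshold of 1, which does not show that the arms were equal. XEN, where Lin28a was highest, held 0.0880 FPKM of Mir99ahg and 0.0193 of 2610203C20Rik. SMC, where Lin28a and Lin28b were listed at 0, held 2.97 and 47.3. AC153911.1 had 0.810 in XEN and 11.9 in SMC. The non-coding 6720427I07Rik had 3.00 in XEN and 4.22 in SMC, both below its mean of 8.70 in mES. The protein-coding hosts overlapped between these lines. Spaca6 had a mean of 16.8 in XEN, where it was higher than in mES by 1.06, and 14.8 in SMC. Wdr82 had 24.5 and 25.2 and Huwe1 15.8 and 15.6. On day 4 Lin28a and Mir99ahg were both higher in RA than in RA/CHIR. Their means were 65.0 and 27.8 FPKM for Lin28a and 2.79 and 0.127 for Mir99ahg. A relation of the hosts to Lin28a was not tested. The host of let-7b and let-7c-2 was not analysed here. A host transcript is not the mature microRNA, and Spaca6, Wdr82 and Huwe1 code for proteins, so these levels say nothing of how much let-7 was made.

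**Figure D3:**
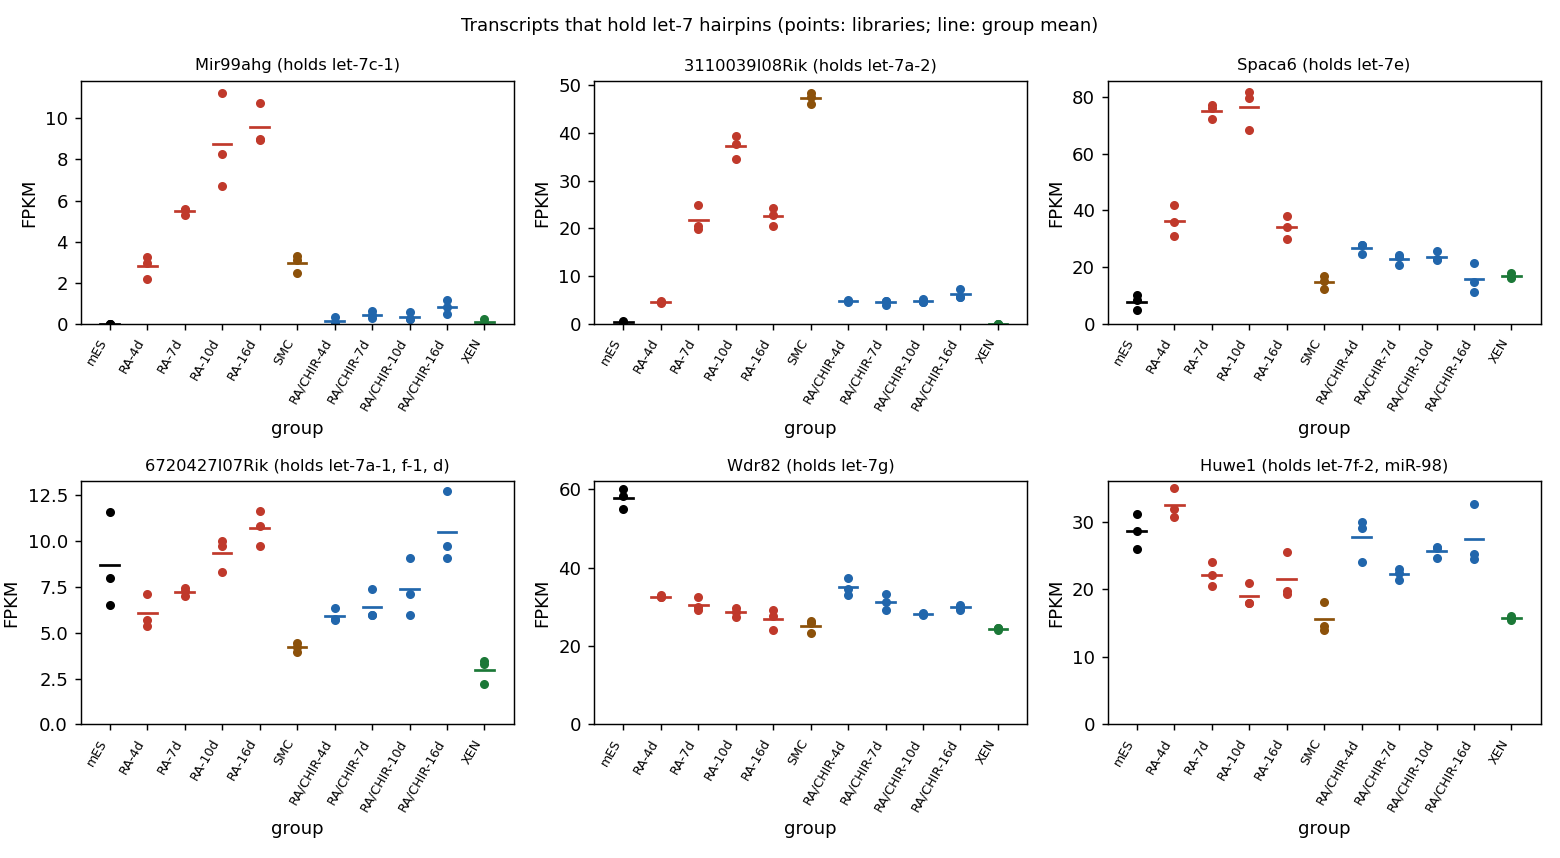
FPKM (vertical axes, own scales) of 6 transcripts that hold let-7 hairpins, by group; points are libraries and horizontal lines group means. Mir99ahg, 3110039I08Rik (2610203C20Rik in the table) and Spaca6 in the top row are higher in RA (red) than in RA/CHIR (blue) from day 7 on, while the 3 in the bottom row were not called between the arms.

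Other let-7 targets were called in both directions on each day. Of 23 further targets, 3 were higher and 1 lower in RA/CHIR on day 4 (7.63% of all genes were called), 1 and 2 on day 7 (10.7%), 2 and 3 on day 10 (15.4%), and 4 and 6 on day 16 (21.3%). The counts of days 7 and 10 are close to those shares. Without RA-4d replicate 1, the count of day 4 was 2 instead of 4. The medians were -0.16, -0.30, -0.63 and -0.07. Sall4, a zinc finger factor of stem cells, was higher by 1.45, 2.31 and 1.87 on days 7, 10 and 16, and its libraries on day 10 were 2.09, 1.999 and 1.84 in RA and 13.5, 15.7 and 12.2 in RA/CHIR. Arid3b was higher by 1.41 on day 10 and 1.88 on day 16, from 1.67, 1.67 and 2.22 FPKM in RA-16d to 9.82, 9.53 and 9.10 in RA/CHIR-16d. Both had the direction of Lin28a and Trim71 on those days.

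Ccnd1, cyclin D1, a Wnt target too, was higher in RA/CHIR by 2.08 ± 0.10 on day 4 and lower by 1.71 ± 0.10 on day 10 and 1.90 ± 0.10 on day 16. It measured 1.90, 1.92 and 2.35 FPKM in RA-4d and 11.5, 10.9 and 13.2 in RA/CHIR-4d, then 18.2, 20.1 and 19.5 in RA-16d and 3.85, 4.23 and 5.29 in RA/CHIR-16d. Of other targets that act in the cell cycle, Cdc25a, a phosphatase, and Cdc34, a ubiquitin-conjugating enzyme, were not called on day 16, with means of 10.7 FPKM in RA-16d and 17.9 in RA/CHIR-16d for Cdc25a and 157.5 and 200.6 for Cdc34. E2f5, a transcription factor, overlapped there, with 17.02 and 16.2. Myc was lower by 1.53 on day 7 and 1.87 on day 10, and Mycn by 1.18 on day 4. The largest falls on day 16 were those of Fas (-2.12) and Thbs1 (-1.93), the latter a matrix protein at 290.1 to 449.9 FPKM in RA-16d and 88.4 to 96.1 in RA/CHIR-16d. Fibroblast markers were higher in RA-16d too, and their part in the result was not tested.

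Relative to mES, 4 of the 23 rose and 7 fell in RA-16d (36.7% of all genes were called), and 5 rose and 7 fell in RA/CHIR-16d (36.3%). Thbs1, Ccnd2, Fas and Insr rose in both, Thbs1 by 5.10 in RA-16d and 3.17 in RA/CHIR-16d and Ccnd2, cyclin D2, by 4.65 and 3.23. Sall4 fell by 3.70 and 1.83, and Mycn by 1.60 and 1.97. Arid3b fell by 2.80 in RA-16d and measured -0.91 in RA/CHIR-16d. The medians were -0.53 and -0.28.

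Cdkn1a and Egr1 are mRNAs that Trim71 is known to repress. On day 16, when Trim71 was higher in RA/CHIR, both were lower there (21.3% of all genes were called). With 2 genes, this is no result about the list. Cdkn1a, the cell cycle inhibitor p21, held 351.3, 378.0 and 359.9 FPKM in RA-16d and 173.8, 174.2 and 163.9 in RA/CHIR-16d, a log2 change of -1.08 ± 0.09 (adjusted p = 5.58e-11). Egr1, an immediate early transcription factor, held 230.8, 61.0 and 239.1 in RA-16d and 41.4, 41.8 and 42.0 in RA/CHIR-16d, lower by 1.82 ± 0.27 (adjusted p = 1.77e-06), with RA-16d replicate 2 well under the other two. On days 7 and 10, when Trim71 was also higher in RA/CHIR, neither was called, the values being -0.15 and -0.21 for Cdkn1a and -0.65 and -0.23 for Egr1. On day 4, when Trim71 overlapped between the arms, Cdkn1a was higher in RA/CHIR by 1.003 ± 0.09 (adjusted p = 8.33e-10). Against mES, Trim71 was lower in every treated group. There 1 of the 2 was called higher and 1 lower in RA-7d, RA-10d and RA/CHIR-4d to RA/CHIR-10d. In RA-4d 1 was lower, in RA-16d both were higher, and in RA/CHIR-16d 1 was higher. Of all genes, 18.2% to 36.7% were called in these comparisons.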

How the data were processed

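Poly(A) RNA of 33 libraries was read as 150 bp pairs, about 25M reads each, per the labels' protocols. Tools named in the submitters' processing notes are HISAT2 2.0.4, Trimmomatic 0.33, Cuffdiff and Cufflinks, with the build GRCm38; no strand setting is given in the sources used here. The deposited values are FPKM as the authors computed them, without counts, so the depth behind each value is unknown. Low values were not whole multiples of a common step.

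Values were analysed as log2(FPKM + 1), which understates changes of weak genes. Genes with at least 1 FPKM in at least 3 libraries (16508) were fitted with limma 3.58.1 in R 4.3.3, in 1 model of the 11 groups with a trended prior, in 18 comparisons. P-values are two-sided and Benjamini-Hochberg adjusted over all genes tested in each comparison. A change of at least 1 on the log2 scale with an adjusted p under 0.05 was called; "rose", "fell", "higher by" and "lower by" for values of 1 or more refer to such calls. Errors are SE of the model or, where stated, SD over 3 libraries. The fit was tested on simulated data.

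Positions, 3′ UTRs and hairpin overlaps came from GENCODE M21 (GRCm38), and microRNAs from RefSeq tables (GRCm38.p6). Python 3.11.15 with pandas 2.3.3, numpy 2.4.6, Biopython 1.88 and matplotlib 3.10.9 was used. Lin28a, Hmga2, Hmga1, Igf2bp1, Igf2bp3 and Trim71 overlap a gene on the other strand, whose reads may be shared. Named were the 8 genes, the 2 to 4 called genes of each list with the largest change, the 3 genes most like each of the 8 (mean of at least 5 FPKM in some group), and the let-7 hosts; further genes of the lists were named after their values were seen. The 8 genes and the lists were chosen with earlier results of these data known. Alternatives were another scaling (TMM-type or quantile), a pseudocount of 0.1, no filter, a fit of the compared groups alone, a replicate block, no minimum change, a prior without trend, and each library left out. A result on 1 further gene is not reported here.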

Additional observations from a re-analysis of the deposited data

Results flagged for a closer look

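The change of Hmga1 from day 10 to day 16 differed between the arms by -1.37 ± 0.17 (log2, RA/CHIR minus RA, adjusted p = 1.73e-07 in limma). Hmga1 fell in all RA/CHIR libraries over these days and overlapped between the days in RA. The level of Hmga1 may depend on how reads that match more than 1 place were counted. The part of such reads in the result was not tested.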

How the results depend on the processing

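The called changes of the 8 genes kept their direction under all alternatives run, and only Trim71 on day 7 lost its call (0.98 to 1.05 with 1 library left out). Direction turned only for values near 0 that were not called. Under quantile normalization these were Lin28b between the arms on day 7 (0.031) and day 10 (0.15) and Igf2bp3 in RA-10d against mES (0.074); TMM-type scaling put Lin28b on day 10 at 0.000125. With 1 library left out the ranges that crossed 0 were -0.094 to 0.017 for Lin28b on day 7, -0.078 to 0.063 for Lin28b on day 10, -0.15 to 0.014 for Igf2bp3 on day 16, -0.011 to 0.14 for Igf2bp1 in RA/CHIR-4d against mES, and -0.056 to 0.058 for Igf2bp3 in RA-10d against mES. For the difference between the steps from day 10 to day 16 they were -0.15 to 0.17 for Lin28a and -0.050 to 0.070 for Trim71. Further values of Lin28b and Igf2bp2 passed the threshold under quantile normalization and with the pseudocount of 0.1, and Hmga1 on day 10 under quantile normalization (1.0). Quantile normalization moved the median of all genes by -0.13 in RA-16d against mES, -0.11 in RA-16d against RA-10d and -0.12 in RA/CHIR-16d against XEN, and called 5 processing factors in RA-16d against mES. A pseudocount of 0.1 called 8 other targets on day 10 and 2 of the 8 genes for the step difference. Leaving out 1 library gave 0 to 1 of the 8 on day 7, 1 to 2 for the step difference and 2 to 5 other targets on day 4. Without a minimum change, 6, 6, 6 and 7 of the 8 passed between the arms, 7 and 8 in RA-4d and RA-7d against mES, 5 and 8 in RA/CHIR-4d and RA/CHIR-10d against mES, 7 in XEN and 8 in SMC against mES, 5 and 7 after withdrawal in RA and RA/CHIR, 6 in RA/CHIR-16d against XEN and 5 for the step difference. Processing factors then gave 5, 8, 8 and 12 between the arms and 12 and 11 in RA-16d and RA/CHIR-16d against mES; other targets gave 16, 16, 18 and 20, and 21 in RA-16d against mES. The cause was not tested. The share of all genes that passed without a minimum change is not given here. Without it, the counts at that setting are no result about the 8 genes or the lists.

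The replicate numbers gave no sign of paired libraries. Deviations of same-numbered libraries correlated at -0.125 to 0.112 and those of different-numbered libraries at -0.125 to 0.128. Of the 33 libraries, 11 correlated best with their own number. With 3 libraries per group, such weak correlations cannot show that no pairing existed. With the replicate block, all 174 results kept their direction and side of the threshold, with 4 of the 8 genes called on day 16. FPKM without counts give no depth, so levels under 1 FPKM, such as Lin28b on day 16, carry an unknown counting error.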
